A study of Oncorhynchus mykiss with 16 samples.

Results

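The transcripts described here are those seen on only some of the arrays in a 2-colour cDNA array study of whole liver from juvenile rainbow trout (Oncorhynchus mykiss) exposed in situ to municipal wastewater effluent. The array held 152 gene IDs. A gene was counted as detected in a dye on an array when its signal divided by its local background, averaged over its spots, exceeded the mean plus 3 SD of the 32 blank spots of that array. The 80 genes detected in both dyes on 1 to 7 of the 16 arrays form the set, chosen by these detection values. Another 50 genes were detected on 8 to 16 arrays and 22 on none. The control trout (0% effluent) were at an upstream reference site, and the other groups were exposed to 10%, 50% and 100% effluent. Each group had 4 arrays, and each array set 1 independent pool of liver RNA against the same reference, a mix of RNA from every sample. Strain, sex, length of exposure and fish per pool are not stated in the labels. Because detection chose the 80 genes, it is described without a test, and the ratio of sample to reference was tested.

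The liver is the main organ in which fish convert organic contaminants, and treated sewage carries steroid hormones, drugs and detergent products. Hepatic transcripts such as vitellogenin, an egg yolk precursor that estrogens switch on, and cytochrome P450 enzymes are therefore common readouts of effluent exposure in trout. On a 2-colour array, sample and reference compete for the same spot, and a transcript is seen only if its labelled cDNA stands out from the glow of the empty slide around it. The reference is the same RNA on every array, although its dye, and so the background it is read against, varies. Genes carry an array number only: 0 of the 152 IDs were found in the RefSeq gene table, so no name, position, function or sequence is given. For the same reason the liver could not be checked against hepatocyte markers.

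The detection threshold lay between 1.02 and 1.11 times the background in Cy3 and between 1.03 and 1.17 times in Cy5. Per array, 11 to 114 of the 152 genes were detected in both dyes. The median Cy5 background was above 1000 intensity units on 7 arrays, which were 2 control arrays, 3 of the 10% group, none of the 50% group and 2 of the 100% group. The sample was in Cy5 on 2 control arrays, 2 of the 10% group, 3 of the 50% group and 1 of the 100% group. For 10% replicate 4, the deposited ratios of the 80 genes ran opposite to the dye label (r = -0.60 across genes, which are not independent replicates), so values that move by over 1.5 times with that array turned are given both ways. Detection in both dyes does not depend on its direction. In whole liver, fewer cells of a type and less RNA per cell cannot be told apart.

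These transcripts were dim. Their mean signal over background, over all arrays and both dyes, had a median of 1.06, from 1.02 to 1.17. The same median was 1.28 for the genes detected on 8 to 16 arrays and 1.02 for those detected on none. Signal over background depends on the probe as well as on the transcript, so it ranks spots by how visible they were and not transcripts by abundance. Of the 80 genes, 7 exceeded 1.5 times the background in some dye on some array, and 1, gene 127, exceeded 2 times, at 2.07 in Cy5 on 50% replicate 1. The median of the mean signal over background was 1.03 for the 14 genes seen on 1 array and 1.10 for the 11 genes seen on 7 arrays. Those just inside the limit were genes 25, 40, 59, 63, 79, 95, 97, 134, 157, 162 and 178, at 1.08 to 1.17. The 9 genes just outside it, on 8 arrays, were 33, 47, 50, 51, 75, 77, 86, 103 and 176, at 1.10 to 1.37. The ranges of both sets overlapped, so the limit of 7 arrays divides a continuous series.

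The 80 genes gave 305 detections in both dyes among 1280 gene and array values, or 23.8%. The 50% group held 145 of them, 47.5%, against 46 in control, 48 in the 10% group and 66 in the 100% group. The 50 genes seen on 8 to 16 arrays were also detected most often at 50%, in 91% of values against 68% in control, 59.5% at 10% and 65.5% at 100%. As a share of the 80 genes per array, the means were 14.4% ± 9.71 in control, 15% ± 18.8 at 10%, 45.3% ± 30.8 at 50% and 20.6% ± 30.6 at 100% (SD, n = 4 each). The SD was larger than the mean at 10% and at 100%, and the arrays of all 4 groups overlapped. In control the counts were 6, 8, 23 and 9 genes on replicates 1 to 4. In the 10% group they were 1, 4, 34 and 9. In the 50% group they were 65, 5, 35 and 40, and in the 100% group 53, 1, 4 and 8. Each group thus held arrays with fewer than 10 of the genes, and 1 array carried most detections of the 100% group.

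The 6 arrays with the most detections were 50% replicates 1, 3 and 4, 100% replicate 1, 10% replicate 3 and control replicate 3. They held 250 of the 305 detections, 82.0%, and 48 of the 80 genes were seen on no other array. Without 100% replicate 1 the share of the 100% group was 5.42%. Without 10% replicate 3 that of the 10% group was 5.83%, and without control replicate 3 that of control was 9.58%. The 50% group stayed above the main share of each other group without any 1 of its arrays, at 33.3% without replicate 1 and 58.3% without replicate 2. The 6 arrays also showed the most of the genes seen on 8 to 16 arrays, 40 to 49 per array against 10 to 37 elsewhere. The gathering of detections on them is therefore not read as a trait of the 80 genes. A gene on 8 or more arrays cannot be confined to 6, so the 48 genes have no counterpart there.

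**Figure D1:**
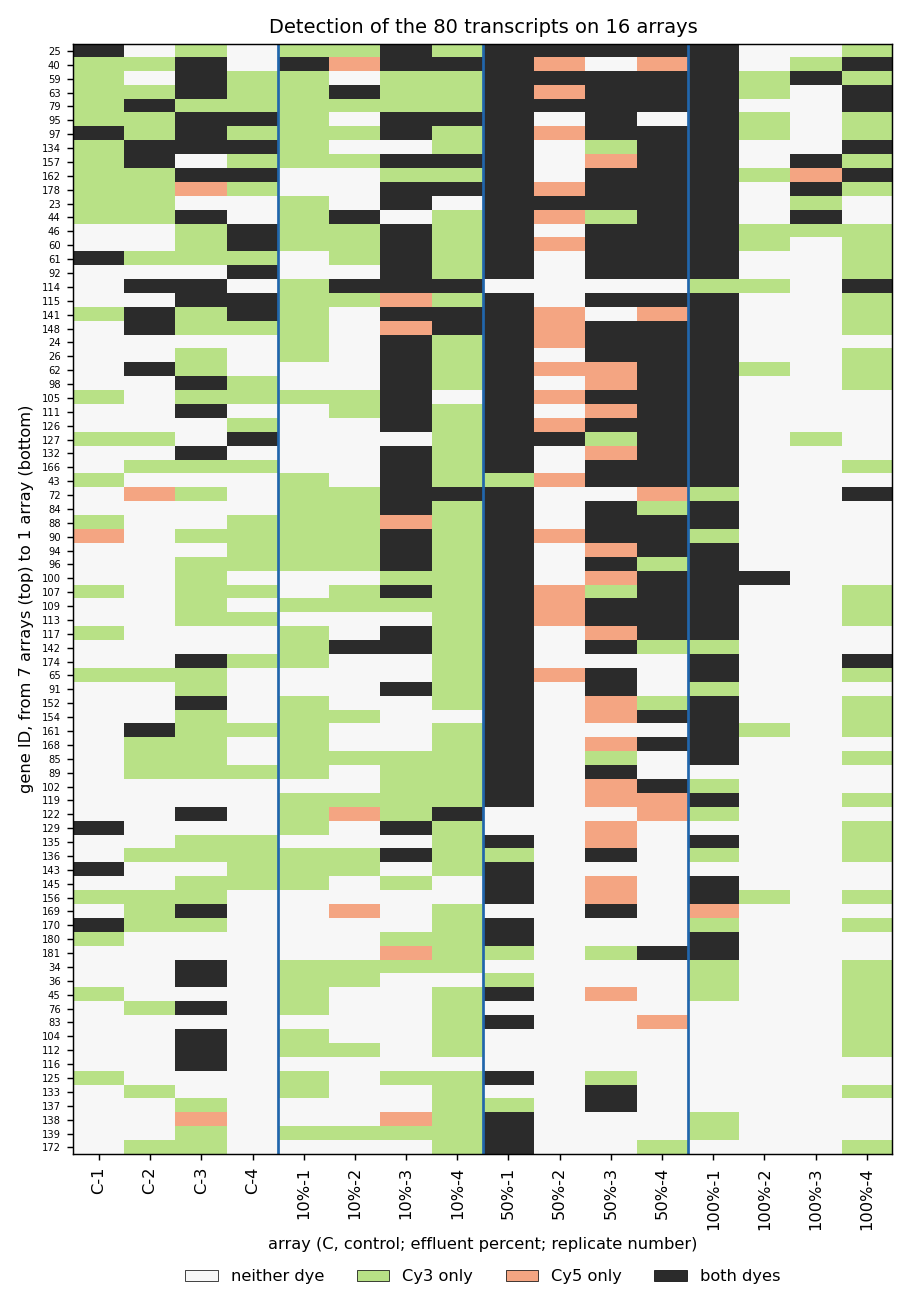
Detection of each of the 80 transcripts (rows, from those seen on 7 arrays at the top to those seen on 1 at the bottom) on the 16 arrays (columns, in blocks of 4 by group). Black cells are detections in both dyes, green in Cy3 alone, orange in Cy5 alone and white in neither; the black cells gather on 6 arrays, which hold 250 of 305, and the Cy3-only cells lie mostly on control, 10% and 100% arrays.

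Most of these genes were not tied to a single group. Detections fell in all 4 groups for 17 genes, in 3 groups for 24, in 2 groups for 23 and in 1 group for 16. The 50% group had at least 1 detection for 71 of the 80 genes, the 100% group for 55, and control and the 10% group for 38 each. Detection on at least 2 arrays of a group was rarer, with 46 genes at 50%, 11 at 100%, 8 at 10% and 7 in control. The limit of 7 arrays bounds these counts. The 50 genes seen on 8 to 16 arrays were also detected most at 50%, in 91% of values. Nothing is therefore read from the counts as a trait of the 80 genes. The 16 genes seen in 1 group comprised 10 at 50% and 6 in control, and none at 10% or 100%. A gene on 8 or more arrays cannot fall in 1 group of 4 arrays, so the other genes give no share to set beside this. All 6 genes of control alone (34, 36, 76, 104, 112 and 116) were seen on 1 array, control replicate 3. Of the 10 genes of the 50% group alone, 8 were seen on 1 array, 6 of them on replicate 1 and 2 on replicate 3. The other 2, genes 89 and 102, chosen for mention after their values were seen, were on 2 arrays each.

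A gene could also be missing from a group in both dyes while visible in one. Of the 80 genes, 42, or 52.5%, were detected in some effluent group and never in control. That was so for 1 of the 50 genes seen on 8 to 16 arrays, 2%, and for 28.3% of all 152. The limit of 7 arrays itself favours genes absent from a whole group, so nothing is read from this difference. Of these 42, 26 were above the blanks in the dye of the sample on at least 1 control array, and 16 were not. In the same 42, the common reference was above the blanks on at least 1 control array for 24. From detection alone, a transcript missing from control liver and one that the control arrays did not show cannot be told apart.

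Sample and reference were also counted apart, by the dye labels. In the dye of the sample, the genes were detected in 31.9% ± 28.6 of cases in control, 40.9% ± 43.2 at 10%, 60% ± 24.3 at 50% and 38.8% ± 39.6 at 100% (SD, n = 4 each). In the dye of the reference, which held the same RNA throughout, the shares were 30.3% ± 13.5 on control arrays, 40.9% ± 22.6 on 10% arrays, 49.1% ± 31.3 on 50% arrays and 24.7% ± 28.8 on 100% arrays (SD, n = 4 each). With 10% replicate 4 turned, the 10% group had 20.9% ± 28.0 in the sample and 60.9% ± 22.9 in the reference, so its place among the groups depends on that array. The gap between sample and reference was 10.9 percentage points at 50%, 14.1 at 100% and 1.56 in control. At 10% it was 0 by the labels. Both RNAs are read on the same array, so the gap is paired by array. Reference minus sample was -5, -18, -11 and -1 genes on 50% replicates 1 to 4. In the same order it was -13, 11, -3 and -40 at 100%, and 22, -21, -31 and 25 in control. At 10% it was 51, 24, -11 and -64, the last by its label. On every control, 10% and 100% array the dye with fewer genes was Cy5, whichever RNA it held. The sample was in Cy5 on 1 array at 100%, 2 in control, 2 at 10% and 3 at 50%. On those 3 arrays at 50%, replicates 2 to 4, Cy5 showed more genes than Cy3. Neither the gap nor the part of the dyes in it was tested. On 50% replicate 1 the sample showed 70 genes and the reference 65. On 100% replicate 1 the figures were 67 and 54. On 100% replicate 3 they were 8 and 5. On other arrays sample and reference parted, such as 10% replicate 1, with 1 in the sample and 52 in the reference. On 10% replicate 4 the figures were 73 and 9 by its label, and the reverse with it turned. On both arrays Cy3 showed the larger number, and both had a high Cy5 background.

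**Figure D2:**
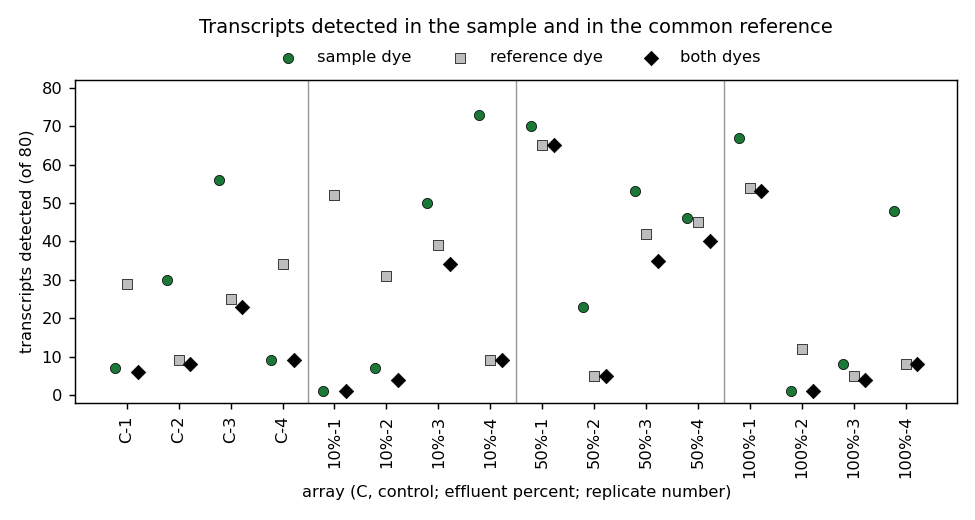
Number of the 80 transcripts detected on each array in the dye of the sample (circles), in the dye of the common reference (squares) and in both (diamonds), with the 4 groups separated by lines. The reference, 1 RNA pool, was detected for 5 transcripts on 50% replicate 2 and on 100% replicate 3 and for 65 on 50% replicate 1.

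The dyes differed. The 80 genes were detected 652 times in Cy3 and 361 times in Cy5. A further split showed 347 values in Cy3 alone, 56 in Cy5 alone, 305 in both and 572 in neither. In Cy3 there were 149 detections in control, 206 at 10%, 162 at 50% and 135 at 100%, each of 320 values. In Cy5 they were 50, 56, 187 and 68. Among the 80 genes, the 50% group thus had the highest count in Cy5, and in Cy3 the 10% group had more detections. No share of the other genes is given beside these counts by dye, so they are not read as a trait of the 80. Fewer genes were detected in Cy5 than in Cy3 on 13 of the 16 arrays. The other 3 were 50% replicates 2, 3 and 4, which are also the 50% arrays with the sample in Cy5.

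The arrays of high Cy5 background held 54 detections in both dyes on 7 arrays, 9.64% of their values, against 251 on the 9 arrays of low background, 34.9%. In Cy3 the high class had the larger share, 53.9% against 48.6%, and in Cy5 it had 10.7% against 41.8%. These shares by dye have no value for the other genes beside them. Within the low class, detection in both dyes was 9.38% in control (2 arrays), 42.5% at 10% (1 array), 45.3% at 50% (4 arrays) and 35.6% at 100% (2 arrays). Within the high class it was 19.4% in control (2 arrays), 5.83% at 10% (3 arrays) and 5.62% at 100% (2 arrays), and the 50% group had none. The 50% group stood above control within the low class, and its distance from the 10% group shrank there to 2.81 percentage points, on 1 array of 10%. The genes seen on 8 to 16 arrays were also detected less often in both dyes in the high class. Per array, 10 to 40 of them were detected there, against 25 to 49 in the low class, and these ranges overlapped. The lower share in the high class is therefore not read as a trait of the genes described here. The part of the Cy5 background in the group counts was not tested.

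**Figure D3:**
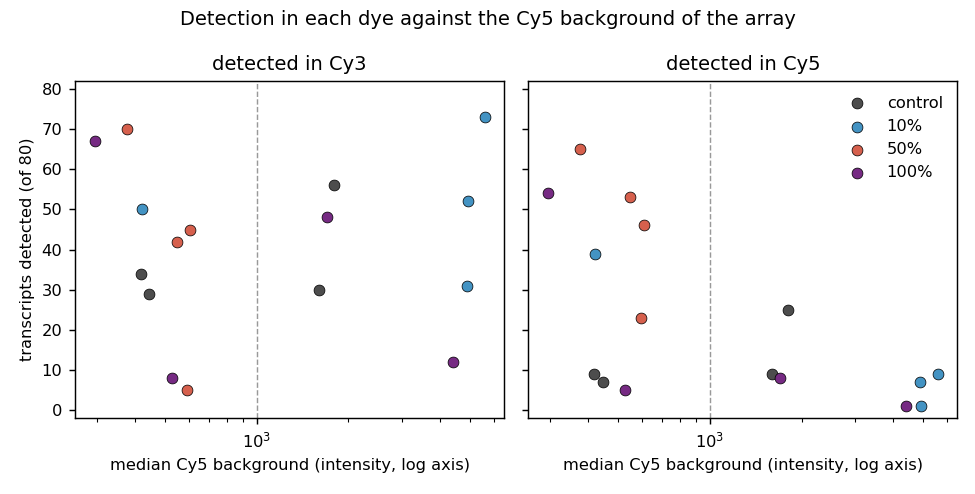
Number of the 80 transcripts detected in Cy3 (left) and in Cy5 (right) on each of the 16 arrays against the median Cy5 background of the array (intensity, log axis), with groups in colour and a dashed line at 1000. To the right of the line Cy5 showed 1 to 25 transcripts and Cy3 12 to 73.

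Detection depends on how many genes an array shows at all, so the genes were also called by rank, a setting chosen after seeing the data. On every array the same number of genes, 44, was called, namely those farthest from the blanks in SD units in the weaker of the dyes. A call gained by one gene is then lost by another on the same array, and the count says where these 80 stood relative to the rest. The 50% group then had the fewest, with 6, 7, 5 and 6 of the 80 genes on replicates 1 to 4. Control had 12, 9, 14 and 8, the 10% group 11, 16, 5 and 13, and the 100% group 5, 14, 7 and 8. The shares were 7.5% at 50%, 13.4% in control, 14.1% at 10% and 10.6% at 100%. These counts are a description only. The rank uses the same signals that chose the 80 genes. At 50%, the genes seen on 8 to 16 arrays were above the blanks in both dyes in 91% of values. Whether this bears on the rank counts was not tested.

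**Figure D4:**
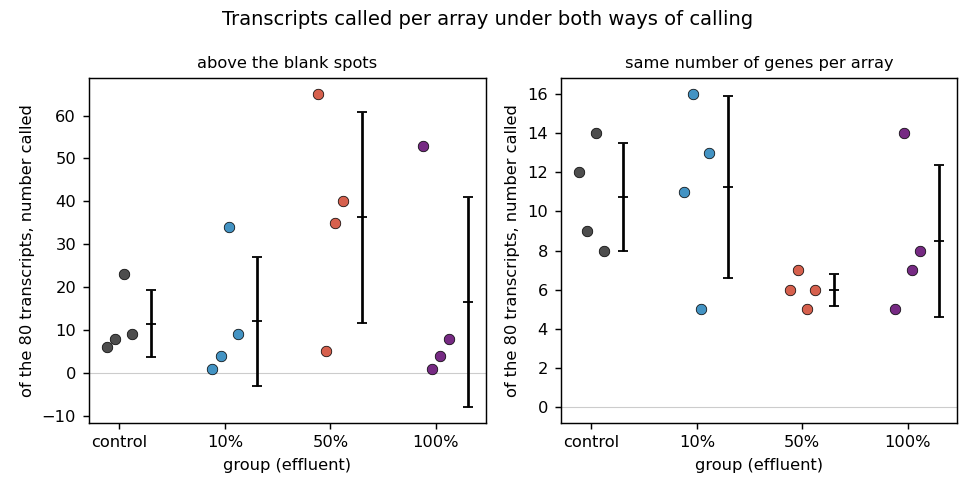
Number of the 80 transcripts called on each array, by group, when called above the blank spots (left) and when the same number of genes, 44, is called on every array (right); points are arrays, and the bar beside them is the mean with its SD. On the left the 50% group reaches 65, 40 and 35, and on the right its arrays hold 5 to 7 against 8 to 14 in control.

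Among single genes, 4 were detected in both dyes on all 4 arrays of the 50% group: 23, 25, 59 and 79. Gene 23 stood at 1.57, 1.23, 1.33 and 1.75 times the background in Cy3 on 50% replicates 1 to 4, and at 1.90, 1.13, 1.23 and 1.56 in Cy5. On the control arrays it was at 1.46, 1.04, 1.02 and 0.86 in Cy3 and at 1.10, 0.99, 1.01 and 0.99 in Cy5, and was detected in both dyes on none. In Cy5 every 50% array lay above every control array, and in Cy3 the groups overlapped through control replicate 1, where Cy3 held the reference. Cy5 held the reference on 50% replicate 1 and on control replicates 2 and 3, and the sample on the other arrays of these groups. Gene 23 was named for its excess of detections at 50%, which rests on these signals, so nothing is read from the separation in Cy5. Its log2 ratio of sample to reference was -0.22 ± 0.40 at 50% and -0.10 ± 0.60 in control (SD, n = 4 each), so the ratios of the groups overlapped. Gene 25, with the highest mean signal over background of the 80, was detected on all 4 arrays at 50% and on 1 array of each other group. Its log2 ratio was 0.03 ± 0.23 at 50% and 0.16 ± 0.15 in control. Gene 79 was detected on 4 arrays at 50%, 2 at 100%, 1 in control and none at 10%, and its log2 ratios were -0.17 ± 0.29, -0.11 ± 0.20, -0.06 ± 0.45 and -0.20 ± 0.27 in that order. For these 3 genes the mean ratio at 50% thus lay between -0.22 and 0.03, with both RNAs visible on every array of the group.

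Gene 114 ran the other way. It was detected in both dyes on 3 arrays at 10%, 2 in control, 1 at 100% and none at 50%. On the 50% arrays it stood at 1.01, 1.02, 1.00 and 1.01 in Cy3 and at 1.02, 1.02, 1.01 and 0.99 in Cy5, so neither the sample nor the reference rose above the blanks there, on arrays that showed up to 65 of the other genes. On the 10% arrays it was at 1.09, 1.10, 1.06 and 1.05 in Cy3 and at 1.08, 1.37, 1.11 and 1.07 in Cy5. Of its 6 detections, 5 were on arrays of high Cy5 background. Together with the 6 genes seen on control replicate 3 alone, genes 114, 122 and 129 made up the 9 genes never detected at 50%; gene 122 was named after its values were seen.

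Other genes leaned to a group less clearly. For control these were genes 134, 36 and 112. Gene 134 was detected on 3 control arrays, none at 10%, 2 at 50% and 2 at 100%. By the labels its log2 ratio was lower in control, at -0.21, 0.07, -0.05 and -0.28, than at 10%, although the values overlapped. At 10% it was 0.26, 0.14, -0.00 and 0.34. The 0.34 came from 10% replicate 4, and with that array turned its sign is reversed and it lies below every control value. Genes 36 and 112 had 1 detection each. For the 10% group the genes besides 114 were 40, on 3 arrays at 10%, 1 in control, 1 at 50% and 2 at 100%, and 72, on 2 arrays at 10%, none in control and 1 in each of the others. For the 100% group they were genes 100, 174 and 44, on 2 arrays each at 100%. Gene 100 was also on 2 arrays at 50%, gene 174 on 1 in control and 1 at 50%, and gene 44 on 1 in control, 1 at 10% and 2 at 50%. No gene of the 80 was detected on more than 2 arrays at 100% or on more than 3 in control or at 10%.

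The 2 spots of a gene did not always carry a detection together. In 195 of the 305 detections, 63.9%, every spot of the gene was above the threshold on its own in both dyes. Among the detections of the genes seen on 8 to 16 arrays that share was 82.9%. There were 62 of the 80 genes with such a detection on at least 1 array and 18 with none. The 80 genes lay in all 4 printing blocks of the array, with 21 of 35 genes in the first row and first column of blocks, 23 of 42 in the first row and second column, 19 of 32 in the second row and first column, and 17 of 42 in the second row and second column. All 32 blank spots were in the 2 blocks of the first column, so the threshold carries no measure of the second column. In the authors' deposited table of log2 ratios per spot, 19.9% of the cells of the 80 genes were blank, against 4.11% for the genes seen on 8 to 16 arrays.

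The ratio of sample to reference was compared between groups for all 152 genes in 1 limma fit, and the values of the 80 are given here. The rule counted detections without regard to group, so the contrast of ratios is not the quantity it used, although both come from the same spots. The log2 ratio had a median absolute size of 0.12 over the 305 detected values and of 0.13 over the 975 others, and the median SD within groups was 0.24. Differences between groups were adjusted for dye, so they can depart from a plain subtraction of group means. Over the 80 genes, the unadjusted 95% interval reached a median of 0.35 to 0.36 log2 units to either side. It is not the limit of detection, since the adjusted threshold is stricter. Larger differences also did not pass that threshold, such as 0.80 for gene 178 at 10% against control. The comparisons with control share the same 4 control arrays, and those of 50% with 10% share arrays with both. None of the 80 genes passed an adjusted p of 0.05 in any comparison (limma, Benjamini-Hochberg over the 152 genes). Unadjusted counts with an array left out or turned, or in another setting, have no share of all genes beside them. They show only how far the counts move.

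At 10% effluent against control, the 2 genes of smallest p with a higher ratio were 178 and 98, and those with a lower ratio were 26 and 25. Gene 178 was at 0.42, 0.28, 0.40 and 0.90 on 10% replicates 1 to 4 and at -0.58, 0.48, -0.58 and -0.51 on the control arrays. Control replicate 2 lay within the 10% values and the other 3 control arrays below them. The difference was 0.80 (SE 0.23, adjusted p = 0.519 by limma), 1.02 without control replicate 2, where it passed (adjusted p = 0.0349), and 0.44 with 10% replicate 4 turned. Over all alternatives it ranged from 0.07, with the deposited ratios, to 1.25, with an offset of 10. The deposited ratios were fitted without rescaling and can be of other size, so differences from them are not a like measure. The deposited value of gene 178 on 10% replicate 4 was -0.16, opposite in sign to the 0.90 by the label. Gene 178 was detected in the dye of the sample on 2 arrays at 10% and on 1 in control, the replicate 2 that was high. Gene 98 was at 0.46, -0.01, 0.03 and 0.41 at 10% and at -0.05, -0.10, -0.21 and -0.28 in control, a difference of 0.38 (SE 0.14). It was 0.15 with 10% replicate 4 turned, and with the deposited ratios its sign was reversed, at -0.0176. Its signal was above the blanks in the dye of the sample on 2 arrays at 10% and 1 in control.

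On the lower side, gene 26 was at -0.65, -0.19, -0.01 and 0.34 at 10% and at 0.34, 0.18, 0.27 and 0.39 in control. The difference was -0.42 (SE 0.17), or -0.25 without 10% replicate 1, and -0.59 (adjusted p = 0.0546 by limma) with 10% replicate 4 turned. The sample of gene 26 was above the blanks on 2 arrays at 10% and only 1 in control. Gene 25 was at -0.89, -0.54, 0.19 and -0.27 against 0.37, 0.09, 0.12 and 0.05, a difference of -0.54 (SE 0.22). Its sample was above the blanks on 2 arrays at 10% and 2 in control. On arrays of low Cy5 background alone, with 1 array at 10%, the difference of gene 25 was 0.33. At an unadjusted p under 0.05 there were 6 of the 80 genes, 7.5%, beside 7.24% of all 152 genes. They were 2 higher and 4 lower, beside 3.29% and 3.95% of all genes. Without 10% replicate 1 there was 1 such gene, without control replicate 1 or control replicate 4 there were 3, and without 10% replicate 4 there were 10, as with that array turned. The median difference of the 80 genes was -0.04 and that of all genes -0.03.

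**Figure D5:**
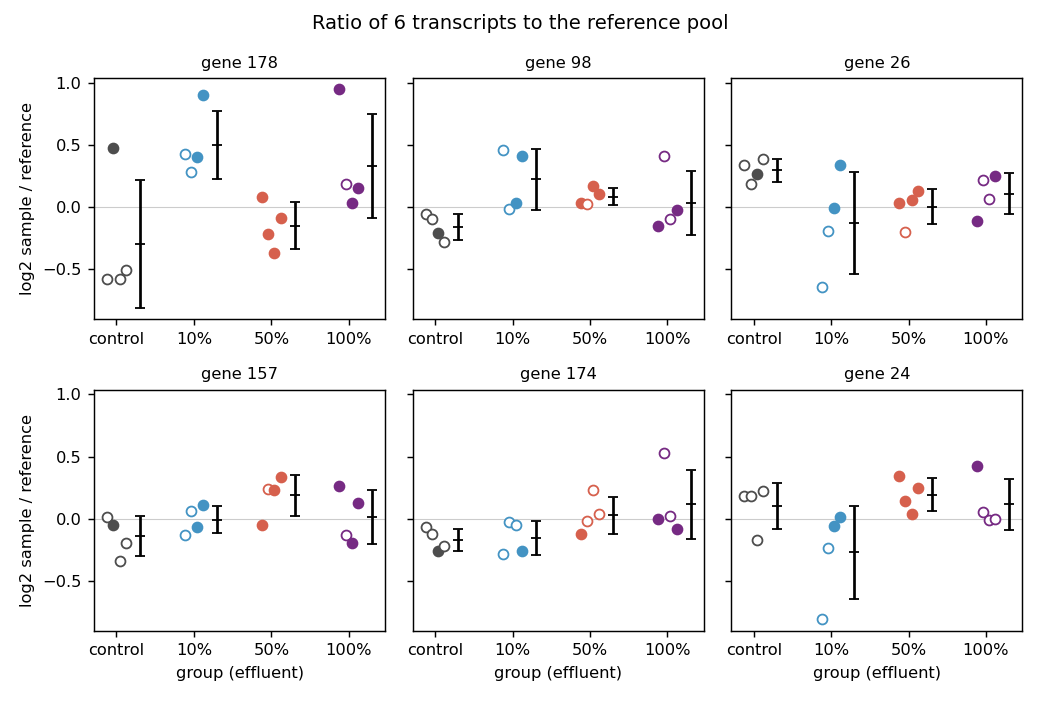
Log2 ratio of sample to reference for genes 178, 98, 26, 157, 174 and 24 on the 4 arrays of each group; filled points are arrays where the transcript was above the blank spots in the dye of the sample, open points those where it was not, and the bar is the mean with its SD (n = 4). Gene 178 lies at 0.28 to 0.90 at 10% and at -0.58 to -0.51 on 3 control arrays, with the fourth at 0.48.

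At 50% effluent against control, gene 157 was at -0.06, 0.24, 0.23 and 0.33 against 0.01, -0.05, -0.34 and -0.20, a difference of 0.32 (SE 0.14, adjusted p = 0.990 by limma). The groups overlapped through 50% replicate 1. It was above the blanks in the dye of the sample on 3 arrays at 50% and 1 in control. Gene 180, the other gene of smallest p with a higher ratio, was above the blanks in that dye on no control array and on 1 at 50%, so no difference is given. Gene 129, lower at 50%, was at -0.16, -0.67, 0.10 and -0.65 against 1.33, -0.03, -0.07 and 0.09. The difference was -0.66 (SE 0.30), and -0.23 with control replicate 1 left out. Gene 129 was above the blanks in the dye of the sample on only 1 array at 50% and 1 in control. Gene 169 differed by -0.34 (SE 0.18), with its sample above the blanks on 1 array at 50% and 2 in control. Of the 80 genes, 2 had an unadjusted p under 0.05, 2.5%, beside 3.29% of all genes. They were 1 higher and 1 lower, beside 1.97% and 1.32% of all genes. That count was 0 without 50% replicate 2 or replicate 4, 1 without control replicate 3, 100% replicate 1, 2, 3 or 4, and 5 on arrays of low Cy5 background alone. The median difference was -0.00476 for the 80 genes and -0.02 for all.

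At 100% effluent against control, gene 174 was at -0.00, 0.53, 0.02 and -0.09 against -0.07, -0.13, -0.26 and -0.22, a difference of 0.33 (SE 0.13, adjusted p = 0.797 by limma) that was 0.18 without 100% replicate 2. The value of 0.53 came from that array, where the gene was not above the blanks in the dye of the sample. Gene 178 was at 0.95, 0.19, 0.03 and 0.15 and differed from the same control arrays by 0.55 (SE 0.23), or by 0.36 without control replicate 3. Lower at 100% were gene 65, at -0.11, -0.04, -0.04 and 0.10 against 0.31, 0.16, 0.11 and 0.20, a difference of -0.21 (SE 0.11), and gene 100, with -0.32 (SE 0.18). The difference of gene 100 was -0.09 without 100% replicate 2 and 0.09 on arrays of low Cy5 background. The sample of gene 100 was above the blanks on 2 arrays at 100% and 1 in control. For gene 174 the figures were 2 and 1, for gene 178 they were 3 and 1, and for gene 65 they were 2 and 2. There were 3 of the 80 genes at an unadjusted p under 0.05, 3.75%, beside 3.95% of all genes. All 3 were higher and none lower, beside 1.97% of all genes in each direction. The count was 0 without 100% replicate 2, 1 without control replicate 4 or 100% replicate 1, and 5 without 100% replicate 4. The median difference was -0.04 for the 80 genes and -0.04 for all.

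Between 50% and 10% effluent, 1 of the 152 genes, 0.658%, passed the adjusted threshold in limma, and it was not among the 80. Gene 24 was higher at 50%, at 0.35, 0.14, 0.04 and 0.25 against -0.81, -0.24, -0.06 and 0.02, a difference of 0.50 (SE 0.17, adjusted p = 0.438 by limma) that was 0.31 without 10% replicate 1. The 50% values lay above those at 10%, and gene 24 was above the blanks in the dye of the sample on all 4 arrays at 50% and 2 at 10%. Gene 46 differed by 0.70 (SE 0.28), resting on a value of -1.64 on 10% replicate 2, without which the difference was 0.31. Its sample was above the blanks on 3 arrays at 50% and 2 at 10%. Gene 169 was lower at 50% by the largest margin relative to its error, -0.47 (SE 0.18). It was at -0.15, -0.01, -0.11 and -0.15 against 0.82, 0.46, -0.07 and -0.26. Its sample was above the blanks on 1 array at 50% and 2 at 10%. Gene 104, also of small p with a lower ratio, was above the blanks in the dye of the sample on no array at 50% and on 1 at 10%, so no difference is given. Of the 80 genes, 6 had an unadjusted p under 0.05, 7.5%, beside 8.55% of all genes. They were 3 higher and 3 lower, beside 4.61% and 3.95%, and the count was 3 without 10% replicate 1, 50% replicate 2 or 50% replicate 4.

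Over the 3 contrasts against control together, limma's F test gave 1 of the 80 genes at an unadjusted p under 0.05, gene 178 (F = 4.68, adjusted p = 0.613), or 1.25%, beside 3.95% of all genes. The F of gene 178 was 9.35 without control replicate 2 and 1.33 with 10% replicate 4 turned. The next was gene 24, with F = 3.19, or 1.40 without 10% replicate 1, and its sample was above the blanks on no control array. The count was 3 with 10% replicate 4 turned. It was 7 without 10% replicate 3 and 6 without 10% replicate 4. It was 3 without 10% replicate 1, 50% replicate 1, 50% replicate 3 or 100% replicate 4, and 2 without 10% replicate 2, 100% replicate 2 or 3, or control replicate 1 or 4. For a linear trend over 0, 10, 50 and 100% effluent, 5 of the 80 genes had an unadjusted p under 0.05, 6.25%, beside 4.61% of all genes. Of these, 3 had positive and 2 negative slopes, beside 1.97% and 2.63% of all genes. Genes 174 and 36 had slopes of 0.34 (SE 0.11, adjusted p = 0.897 by limma, and 0.22 without 100% replicate 2) and 0.29 (SE 0.12) log2 units per 100 percentage points. The sample of gene 36 was above the blanks on 1 array in control, none at 10%, 1 at 50% and 2 at 100%. Genes 92 and 91 had slopes of -0.24 (SE 0.10) and -0.27 (SE 0.12). The sample of gene 92 was above the blanks on 1 array in control, 2 at 10%, 3 at 50% and 2 at 100%. For gene 91 the figures were 1, 2, 2 and 1 in that order. The trend count was 0 without 100% replicate 2, whose sample gave 0.53 for gene 174 and -0.50 for gene 91. It was 2 without 10% replicate 4. It was 3 with that array turned, and 3 without 10% replicate 3, 100% replicate 3 or control replicate 1, 2 or 4. The slope of gene 91 was 0.00375 with the deposited ratios, and that of gene 36 was -0.03 on arrays of low Cy5 background.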

How the data were processed

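Per the labels' protocols, cDNA of each liver pool and of the common reference was coupled to Cy3 or Cy5 and hybridised to 1 array. The dye of each sample is taken from its label. No scanner or image software is named in the labels. Per the file headers, the authors deposited the mean intensity of each of 384 spots and of its local background in each dye, with no subtraction or dye normalization. The authors' deposited table of log2 ratios per spot entered as an alternative, with no rescaling, centring or turning. Its scale, centring and direction are known only from its values.

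Detection used signal over background against the mean plus 3 SD of the 32 blank spots of the array (Python 3.11.15, pandas 2.3.3). For ratios, limma's normexp (offset 50) was applied to signal and background, followed by loess within arrays (span 0.3, control spots at weight 0) (limma 3.58.1, R 4.3.3). Ratios were turned to sample over reference and averaged per gene. All 16 arrays entered 1 fit with 4 group means and the sample dye, with 11 residual degrees of freedom, and Benjamini-Hochberg adjustment over 152 genes within each comparison. Since each pool has 1 array, the p-values cannot separate variation between pools from that between arrays, and 4 arrays per group limit the precision. The normexp offset pulls dim ratios towards 0.

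The 80 genes, the tests and the alternatives were chosen with earlier results of these data known. Named genes were, among the 80, the 3 per group with the largest excess of detections over the other groups, the 2 of smallest p in each direction of each comparison (2 by F), the 5 of highest mean signal over background (25, 23, 178, 127 and 134), and those on 7 arrays, with genes on 8 arrays beside them. Gene lists and cell type markers could not be matched to IDs and were not used. Arrays were classed by a median Cy5 background above 1000. The fits were tested on simulated data.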

Additional observations from a re-analysis of the deposited data

Results flagged for a closer look

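Among 80 sets of 4 arrays of a group, 12 values stood apart from the rest of their set, beside about 4 at 1 in 20 for unselected sets. Most of these sets are of 17 genes named by small p in the same data. The both-dye and reference-dye counts of an array also overlap, so the 4 is not a strict baseline. The array 100% replicate 1 showed 53 of the 80 genes in both dyes and 54 in the reference dye, while the remaining arrays at 100% showed 1 to 8 and 5 to 12. The other values are log2 ratios. Gene 24 had -0.17 on control replicate 3 (0.18 to 0.22 elsewhere in its group). Its value of 0.42 on 100% replicate 1 compares with -0.01 to 0.05. For gene 91, 50% replicate 1 had -0.0124 (otherwise -0.28 to -0.24), and 100% replicate 2 had -0.50 (otherwise -0.06 to 0.01). Gene 92 reached -0.21 on 50% replicate 2, where its group otherwise spanned -0.04 to -0.01. Gene 100 reached -0.17 on 10% replicate 4, the array of doubtful direction, where its group otherwise spanned 0.15 to 0.17. The value of 1.33 for gene 129 on control replicate 1 compares with -0.07 to 0.09. For gene 178, control replicate 2 had 0.48 (otherwise -0.58 to -0.51), and 100% replicate 1 had 0.95 (otherwise 0.03 to 0.19). Gene 180 had 0.28 on 100% replicate 2 (otherwise -0.01 to 0.00). Spots named Q belong to no comparison here. They were above the threshold of the blanks in 62.1% of cases in Cy3 and in 54.0% in Cy5. Spots named SSC, also outside the comparisons, were above it in 8.98% of cases in Cy3 and 2.73% in Cy5. The blanks themselves were above it in 0.391% in either dye. They define the threshold, so their share is no measure of false detection.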

How the results depend on the processing

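The number of genes found was 67 to 81 under other thresholds, controls, quantities or numbers of genes per array, 79 to 89 without 1 array, and 97 on the 9 arrays of low Cy5 background. Detection in control was 30.6% with a threshold of 2 SD and 32.5% with the median and scaled median absolute deviation of the blanks. The other groups are not given under these thresholds, so these control shares cannot be set against the main shares of those groups. At 50% it was 7.5% with the same number of genes on every array, and at 10% it was 42.5% on arrays of low Cy5 background, which are 1 array. These last settings were chosen after seeing the data. Without 1 array, detection ranged from 9.58% to 16.7% in control, 5.83% to 19.6% at 10%, 33.3% to 58.3% at 50% and 5.42% to 27.1% at 100%. Of 159 counts of adjusted calls under the alternatives, 158 were 0, as in the main setting. The exception was 1 gene, gene 178, at 10% against control without control replicate 2, where the difference was 1.02; without 1 array that count ranged from 0 to 1. Unadjusted counts moved by over 1.5 times in 65 of 159 cases, between 0 and 17 at 10% against control, 0 and 5 at 50%, 0 and 6 at 100%, 0 and 14 between 50% and 10%, 1 and 9 by F, and 0 and 7 for the trend. With the deposited ratios these counts were the highest at 10% against control (17), between 50% and 10% (14) and by F (9). At 50% against control they gave 5, as did the arrays of low Cy5 background. The share of all genes was counted in the main setting only, so nothing is read from these counts about the 80. In the deposited ratios 10% replicate 4 ran opposite to its label. Turning that array alone gave 10 at 10% against control and 3 at 50% against control. Its part in the deposited counts was not tested. Sizes can differ too, such as -0.14 deposited against -0.81 for gene 24 on 10% replicate 1. Of 576 values of named genes under the alternatives, 8 changed sign. With the deposited ratios, gene 98 was at -0.0176 at 10% against control, gene 104 at 0.0177 between 50% and 10%, and the slope of gene 91 at 0.00375, which was 0.00285 without background correction. Gene 104, not above the blanks at 50%, has only a bound there. On arrays of low Cy5 background, gene 25 was at 0.33, gene 100 at 0.0869, gene 104 at 0.11 and the slope of gene 36 at -0.0273. The cause was not tested. In the fit on 9 arrays the spread of the lone 10% array is taken from the other arrays, and arrays of high Cy5 background gave no value for the 50% group. With the replicate number as a block, adjusted calls among the 80 genes stayed at 0 in all 6 comparisons, and the unadjusted counts were 6, 2 and 5 for 10%, 50% and 100% against control, 5 between 50% and 10%, 2 by F and 4 for the trend. No pairing by number was used in the main fit. Of pairs with the same number, 9 of 24 correlated above 0.1, beside 24 of 72 with different numbers. The mean correlations were 0.03 and -0.01 in that order, and the highest 0.496 and 0.324. Of the 16 arrays, 4 correlated best with their own number. Signals close to the background limit what these 80 genes can show.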

Other observations

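The 22 genes detected on no array lay together. Of these, 18 were among the 42 genes of the printing block in the second row and second column, against 3 of 35, 0 of 42 and 1 of 32 in the other blocks. The median gene spot of that block stood at 1.04 times the background in Cy3 and 1.03 times in Cy5, and in the other blocks at 1.06 to 1.08 in Cy3 and 1.05 to 1.09 in Cy5. That block holds no blank spots.

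Agreement between the deposited ratios and the scanner ratios varied for the 80 genes. Across genes, which are not independent replicates, the correlation was 0.936 on 50% replicate 1, where 65 of the 80 were detected, and 0.166 on 10% replicate 3, where 34 were. It was 0.349 on 50% replicate 2 and 0.353 on 100% replicate 3, with 5 and 4 detected. Other arrays with few detections correlated more closely, such as control replicate 2 at 0.838 with 8 and 10% replicate 2 at 0.802 with 4.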
